A study of Mus musculus with 11 samples.

Results

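The metallothionein and zinc handling genes followed here are 8 genes of the mouse ileum: Mt1, Mt2, Mtf1, Slc30a1, Slc30a10, Slc39a4, Slc39a5 and Slc39a14. They were taken by symbol from a count table of 31168 genes, and all 8 were found and all 8 passed the filter on low counts, which kept 15911 genes. The set was proposed because of the Mt1 and Mt2 values of these same libraries, so those values describe the choice and do not test it. The libraries came from pieces of the distal ileum, after the mice were treated with dextran sodium sulfate, which injures the intestinal lining. One group of 5, named dIEC, carried floxed H2-Ab1 (H2-Ab1 fl/fl) with the Villin:Cre transgene, in which the villin promoter drives Cre recombinase in the intestinal epithelium. The other group of 6, named WT, carried the same floxed alleles without the transgene, so neither group had unmodified H2-Ab1 and both received the sulfate. The labels state no age for the mice. The genotype labels of the samples set the groups, since the study's design text writes the genotype without Cre for both.

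Metallothioneins are small cysteine-rich proteins that bind zinc and copper and buffer free zinc in the cell. When free zinc rises, the zinc finger factor Mtf1 enters the nucleus, binds short metal response elements and raises transcription of Mt1, Mt2 and Slc30a1, which encodes an exporter of zinc at the plasma membrane. In the small intestine the importer Slc39a4 takes zinc up from the lumen at the apical face of enterocytes, and Slc39a5 acts at their basolateral face. Mouse Slc39a4 RNA is known to be more abundant when zinc is scarce. Slc39a14 carries zinc, iron and manganese into cells, and Slc30a10, although placed in the zinc exporter family, is known mainly as a manganese exporter. Metallothionein genes also respond to glucocorticoids and to inflammatory cytokines.

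The 250 bases upstream of the RefSeq start (GRCm38.p6) are shown for the 4 members whose levels varied most or that Mtf1 is known to activate. Capitals mark every match to the core of the metal response element, TGCACNC or TGCGCNC, on either strand.
Mt1, chr8:94178839-94179088, plus strand: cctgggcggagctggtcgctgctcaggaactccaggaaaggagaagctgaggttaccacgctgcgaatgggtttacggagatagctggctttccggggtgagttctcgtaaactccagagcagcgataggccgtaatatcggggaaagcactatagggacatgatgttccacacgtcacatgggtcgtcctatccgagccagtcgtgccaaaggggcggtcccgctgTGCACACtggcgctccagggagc
Mt2, chr8:94172368-94172617, plus strand: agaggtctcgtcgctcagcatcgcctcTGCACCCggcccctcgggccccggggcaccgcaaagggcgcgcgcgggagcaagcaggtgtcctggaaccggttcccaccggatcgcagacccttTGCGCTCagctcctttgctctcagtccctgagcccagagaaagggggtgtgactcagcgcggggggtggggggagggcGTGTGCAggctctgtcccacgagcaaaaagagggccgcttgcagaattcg
Slc30a1, chr1:191906531-191906780, plus strand: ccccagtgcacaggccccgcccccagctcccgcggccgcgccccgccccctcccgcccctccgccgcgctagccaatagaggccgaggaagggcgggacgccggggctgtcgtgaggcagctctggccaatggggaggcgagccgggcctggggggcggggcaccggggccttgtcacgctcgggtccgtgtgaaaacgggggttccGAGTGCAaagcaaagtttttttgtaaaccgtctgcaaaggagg
Slc30a10, chr1:185454598-185454847, plus strand: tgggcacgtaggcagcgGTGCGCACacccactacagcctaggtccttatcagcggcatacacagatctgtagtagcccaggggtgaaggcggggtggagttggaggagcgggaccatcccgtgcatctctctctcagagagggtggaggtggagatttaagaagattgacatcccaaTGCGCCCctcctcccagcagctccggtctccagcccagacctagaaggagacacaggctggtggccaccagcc
The Mt2 window held 3 matches, at -223, -128 and -50 from the start. The Mt1 window held 1, at -23, and the 152 bases that follow it, up to the start of the transcript Mt1-202 at position 94179241, held another 4. For that stretch, which is not printed, no background share was computed. In Slc30a1 there was 1 match, and in Slc30a10 there were 3, of which 2 overlap, leaving 2 that do not. The Slc39a5 entry with the first start held 1 match, its other entry and the Mtf1 entry held 0, and Slc39a4 and Slc39a14 have no entry in the table. Of 32851 upstream windows of the same length, 21.4% held at least 1 match, 4.30% at least 2 and 0.770% at least 3, overlapping matches counted once. A match in this window is a run of letters and not a measured binding site.

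Each library held 6603965 to 9681698 counts in named genes, of which 28.7 to 49.2% in dIEC and 26.2 to 43.4% in WT were ribosomal. The targeted gene H2-Ab1 had 16.8 to 39.2 CPM, which are counts scaled to a library of 1000000, in dIEC and 47.5 to 112 CPM in WT, in the order the labels give. The ileal markers Fabp6 and Slc10a2 were present in every library, at 83.7 CPM or more in dIEC and 49.6 CPM or more in WT, and 10 fixed markers of pancreatic acinar cells together reached at most 0.433 CPM in dIEC and 0.940 CPM in WT. Because the tissue was bulk, fewer cells of a type and less RNA per cell cannot be told apart in any value below. The labels do not say more of the animals than their genotype and treatment, so the p-values rest on the spread from library to library, which may be partly technical.

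Mt1 was higher in every dIEC ileum than in any WT ileum. Its levels were 158, 109, 82.7, 66.0 and 119 CPM in dIEC replicates 1, 3, 5, 6 and 11, against 11.02 CPM in the lowest, 16.9 at the median and 19.4 in the highest WT library. The groups did not overlap, and the lowest dIEC library stood 3.41 times above the highest WT library. The means were 107 ± 35.3 CPM in dIEC (SD, n = 5) and 15.7 ± 3.61 CPM in WT (SD, n = 6), with a log2 fold change of 2.76 ± 0.22 (SE) in edgeR. Counted per 1000 CPM of 13 epithelial genes, Mt1 stood at 24.3 to 51.7 in dIEC and at 4.12 to 8.15 in WT. The gene spans positions 94179082 to 94180327 of chromosome 8 (GRCm38, plus strand). All dIEC mice and no WT mouse carried the transgene, and the table holds 1 count per gene, so transcripts of the chromosomal gene and of any Mt1 sequence carried on inserted DNA cannot be told apart.

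**Figure D1:**
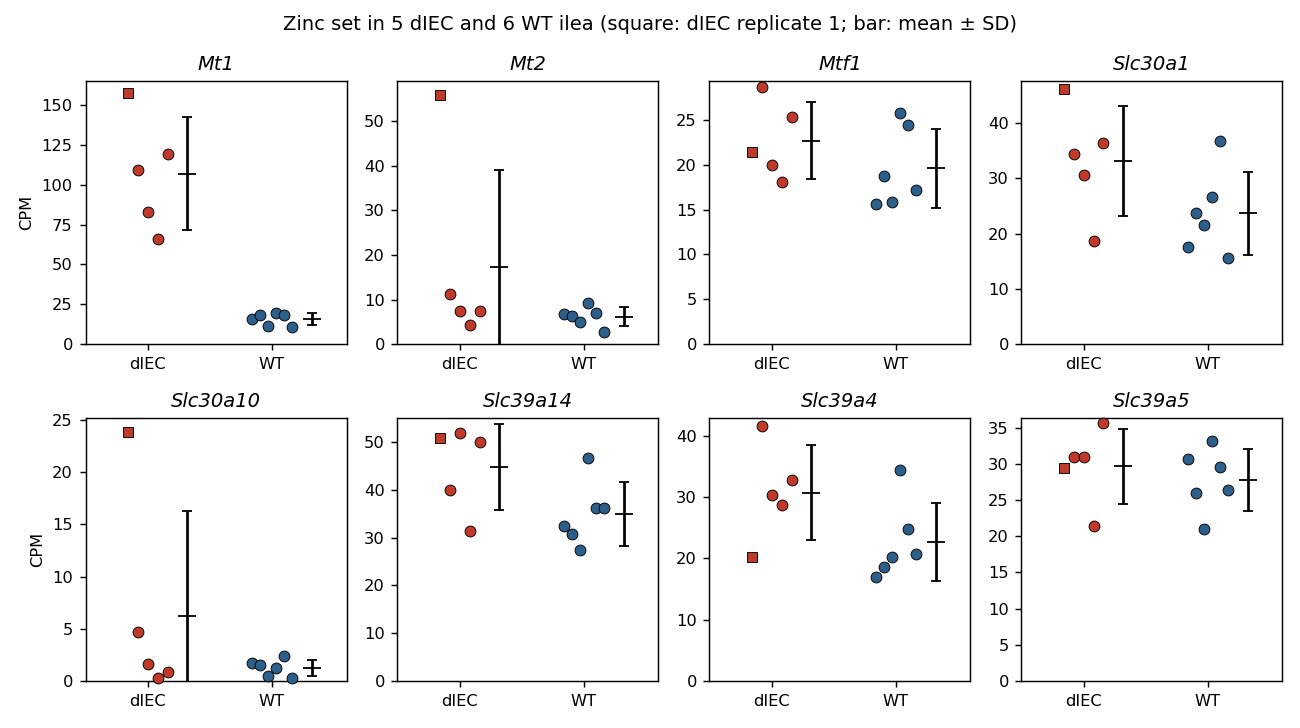
CPM of the 8 genes in each library, dIEC in red left of WT in blue, with the mean and SD beside the points (SD bars stop at 0) and dIEC replicate 1 drawn as a square. Mt1 separates the groups, with 66.0 CPM or more in dIEC and 19.4 CPM or less in WT, while Mt2 and Slc30a10 are far higher in dIEC replicate 1 than in any other library.

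Mt2, which lies upstream of Mt1 on the same chromosome (94172664 to 94173568, plus strand), did not share this separation. Its levels were 55.9, 11.3, 7.53, 4.27 and 7.46 CPM in dIEC replicates 1, 3, 5, 6 and 11, against 2.82 CPM in the lowest, 6.54 at the median and 9.29 in the highest WT library. Replicate 1 was the one dIEC library far above WT, replicate 3 was slightly above the highest WT library, and the other 3 lay within the WT range. The log2 fold change was 1.49 ± 0.61 (SE) over all libraries and 0.33 without dIEC replicate 1. The counting intervals were 50.5 to 61.8 CPM for dIEC replicate 1 and 9.24 to 13.8 CPM for replicate 3 (exact Poisson, 95%), and they cover counting error only.

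The ratio of Mt1 to Mt2 reads within a library does not depend on how libraries are scaled. It was 2.82, 9.62, 10.97, 15.4 and 16 in dIEC replicates 1, 3, 5, 6 and 11, and 2.09 to 3.90 in WT. In 4 dIEC libraries the ratio was well above every WT library, and in dIEC replicate 1, where both genes were high, it fell inside the WT range. The share of Mt1 among the reads of both genes was 73.8% in dIEC replicate 1 (95% Wilson interval 71.5 to 76.0) and 90.6 to 94.1% in the other dIEC libraries, against 67.6 to 79.6% in WT. Within the annotated transcripts the longest identical run between Mt1 and Mt2 was 20 bases, and no run of 36 bases of either gene occurred in a transcript of any other gene. Per base of merged exon (1246 for Mt1, 588 for Mt2) the ratio averaged 5.18 ± 2.51 in dIEC and 1.27 ± 0.309 in WT (SD, n = 5 and n = 6). The merged exons of Mt1 fill the whole gene, introns included, since the transcript Mt1-202 (1085 bases) runs through them. With the spliced lengths of the first-listed transcripts (549 and 511 bases) the ratio averaged 10.2 ± 4.96 in dIEC and 2.51 ± 0.610 in WT. Over all pairs of annotated transcripts the WT mean ran from 0.965 to 2.51. How close the genes stood per length in WT therefore depends on the lengths used.

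**Figure D2:**
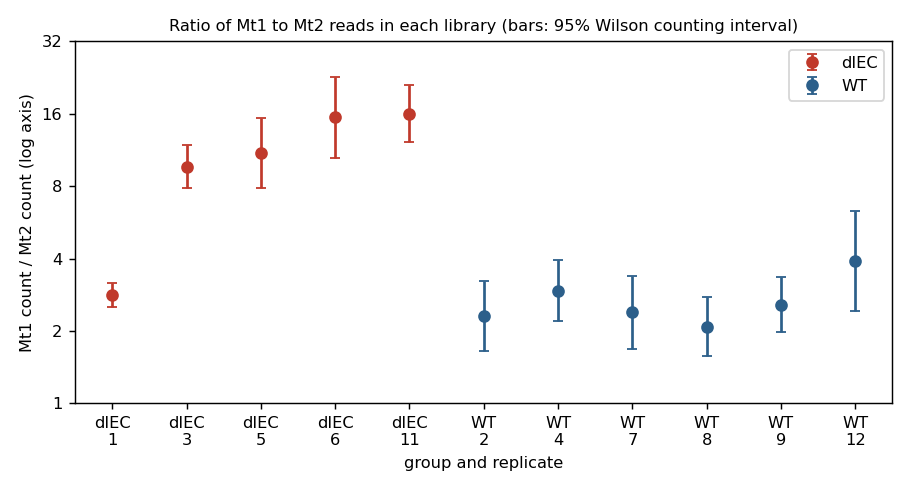
Mt1 count divided by Mt2 count in each library on a log axis, dIEC in red and WT in blue, with 95% Wilson counting intervals. Replicates 3, 5, 6 and 11 of dIEC sit at 9.62 to 16, while dIEC replicate 1 at 2.82 lies among the WT libraries at 2.09 to 3.90.

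Among the transporters that move metal out of the cytosol, Slc30a10 had the widest spread. It had 23.8, 4.72, 1.63, 0.317 and 0.829 CPM in dIEC replicates 1, 3, 5, 6 and 11, and 0.269 CPM in the lowest, 1.38 at the median and 2.35 in the highest WT library. The replicates that led for Mt2, 1 and 3, also led here, and the other dIEC libraries lay in the WT range. Some of these values rest on few reads. The 2 reads of dIEC replicate 6 give an interval of 0.0383 to 1.14 CPM and the 165 reads of dIEC replicate 1 one of 20.3 to 27.8 CPM (exact Poisson, 95%). The log2 fold change was 2.29 ± 0.92 (SE; edgeR adjusted p = 0.436), and without dIEC replicate 1 it was 0.64. Slc30a10 lies on chromosome 1 from 185454848 to 185468762 (plus strand).

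Slc30a1, the zinc exporter that Mtf1 activates, varied less. It had 46.1, 34.4, 30.5, 18.7 and 36.3 CPM in dIEC replicates 1, 3, 5, 6 and 11, against 15.6 CPM in the lowest, 22.7 at the median and 36.7 in the highest WT library. Replicate 1 of dIEC was again the highest of all, dIEC replicate 6 lay in the lower part of the WT range, and the groups overlapped. The log2 fold change was 0.48 ± 0.23 (SE; edgeR adjusted p = 0.471). The gene lies on chromosome 1 from 191906767 to 191913247 (plus strand).

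The apical importer Slc39a4 was at its lowest among dIEC libraries in the one with the most Mt2. It had 20.2, 41.7, 30.3, 28.6 and 32.7 CPM in dIEC replicates 1, 3, 5, 6 and 11, against 16.9 CPM in the lowest, 20.5 at the median and 34.4 in the highest WT library. Replicate 1 was the lowest dIEC library, replicate 3 exceeded all WT libraries, and replicates 5, 6 and 11 exceeded all WT libraries but replicate 8. The log2 fold change was 0.45 ± 0.19 (SE; edgeR adjusted p = 0.444). Per 1000 CPM of the epithelial genes, Slc39a4 had 6.63 in dIEC replicate 1, the lowest of the 11 libraries, 9.03 to 11.8 in the other dIEC libraries and 7.44 to 8.78 in WT. On that scale the WT libraries were tightly grouped, with every dIEC library outside their range on one side or the other. The read ratio of exporter Slc30a1 to importer Slc39a4 was 2.28 in dIEC replicate 1, 0.652 to 1.11 in the other dIEC libraries and 0.753 to 1.48 in WT.

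The remaining importers overlapped between the groups. Slc39a5 averaged 29.7 ± 5.19 CPM in dIEC and 27.8 ± 4.30 CPM in WT (SD, n = 5 and n = 6), a log2 fold change of 0.096 ± 0.14 (SE; edgeR adjusted p = 0.819). Its range was 21.4 to 35.6 CPM in dIEC and 21.0 to 33.2 CPM in WT. Slc39a14 averaged 44.8 ± 8.95 CPM in dIEC and 35.0 ± 6.68 CPM in WT (log2 fold change 0.36 ± 0.15, SE; edgeR adjusted p = 0.442). It ranged from 31.3 to 51.9 CPM in dIEC and from 27.4 to 46.7 CPM in WT, with 3 dIEC libraries, replicates 1, 5 and 11, above the highest WT library. The regulator Mtf1 averaged 22.7 ± 4.26 CPM in dIEC and 19.6 ± 4.42 CPM in WT (log2 fold change 0.21 ± 0.16, SE; edgeR adjusted p = 0.614). Mtf1 ranged from 18.0 to 28.6 CPM in dIEC and from 15.6 to 25.7 CPM in WT, and RNA level does not report the factor's activity. These genes lie on chromosome 10 (Slc39a5, 128395931 to 128401229, minus strand), chromosome 14 (Slc39a14, 70303469 to 70351425, minus strand), chromosome 4 (Mtf1, 124802104 to 124849800, plus strand) and, for Slc39a4, chromosome 15 (76612383 to 76617384, minus strand).

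Levels of different genes were set side by side only per kilobase of merged exon. In dIEC the order was Mt1 (85.8 CPM per kilobase), Mt2 (29.4), Slc39a5 (13.3), Slc39a4 (9.89), Slc30a1 (6.33), Slc39a14 (4.25), Mtf1 (2.54) and Slc30a10 (1.07). In WT it was Mt1 (12.6), Slc39a5 (12.5), Mt2 (10.5), Slc39a4 (7.28), Slc30a1 (4.51), Slc39a14 (3.31), Mtf1 (2.20) and Slc30a10 (0.215). Neighbours in either order had overlapping ranges over libraries, with the exception of Mtf1 and Slc30a10 in WT. On this scale Mt1 exceeded Slc39a5 in 3 of 6 WT libraries, and Mt2, second by its mean in dIEC, exceeded Slc39a5 in 2 of 5 dIEC libraries. The merged exons of Mt1 (1246 bases) take in its introns, and its spliced transcript Mt1-201 has 549 bases. With that length Mt1 would stand higher per kilobase, so its near tie with Slc39a5 in WT depends on the length chosen.

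In edgeR's quasi-likelihood test 1 of the 8 genes, Mt1, passed an adjusted p of 0.05, against 0.00628% of all genes tested, where Mt1 is the single call. Without WT replicate 8 the number of genes called was 319, with Mt1 still the one member among them. The CPM ranges of the groups did not overlap for 1 of the 8, again Mt1, against 0.566% of all genes. Unadjusted, 5 of the 8 had p under 0.05, all higher in dIEC, against 10.7% of all genes (4.87% higher and 5.79% lower in dIEC). DESeq2 called 0.0692% of the genes it tested, and Mt1 alone among the 8. The set was chosen on this contrast, so nothing is read from these counts. Each of the 8 fold changes was positive, against 7767 of 15911 over all genes. Their median on the log2 scale was 0.47, against -0.00709 over all genes. Slc39a5 turned negative when libraries were scaled by size alone. Markers of several cell types leaned one way between the groups with 0 calls in edgeR and 0 by DESeq2, and their part in these values was not tested. Of 13 epithelial markers 13 lay above 0 (median 0.24, summed level 2721 to 3623 CPM in dIEC and 2258 to 3914 CPM in WT). So did 22 of 23 enterocyte markers (median 0.66, 5 higher in dIEC at an unadjusted p under 0.05, against 4.87% of all genes). Of 12 fibroblast markers 0 did, and 10 were lower in dIEC at an unadjusted p under 0.05, against 5.79% of all genes (median -0.66, summed level 375 to 638 CPM in dIEC and 387 to 1192 CPM in WT). With the enterocyte score in the model the Mt1 log2 fold change was 2.37, and with the epithelial or smooth muscle score it was 2.57 or 2.53. The log2 fold changes of the transporters and Mt2 that follow were also lower in these models than without a score. Mt2 was at 0.66 with the enterocyte score, 1.24 with the epithelial score and 0.34 with the smooth muscle score, and Slc30a10 was at 1.12, 2.11 and 0.71 in the same order. Slc30a1 was at 0.079, 0.25 and 0.23, Slc39a14 at 0.081, 0.14 and 0.23, and Slc39a4 at 0.21, 0.18 and 0.43.

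The other zinc transporters, taken as whole families, gave 0 calls in edgeR in either direction and 0 by DESeq2. Of 8 further Slc30 genes 6 were tested, and all 6 lay above 0 with a median log2 fold change of 0.23 (2 at an unadjusted p under 0.05). Over all 15911 genes tested 7767 lay above 0, and 10.7% had an unadjusted p under 0.05 in edgeR. Slc30a2, which loads zinc into secretory vesicles, had 48.3, 19.6, 13.4, 6.96 and 20.6 CPM in dIEC replicates 1, 3, 5, 6 and 11 and 6.10 to 16.1 CPM in WT (log2 fold change 1.08 ± 0.42, SE; edgeR adjusted p = 0.428). Its highest library was once more dIEC replicate 1. Slc30a5, a transporter of the early secretory pathway, averaged 26.2 ± 2.56 CPM in dIEC and 21.1 ± 2.62 CPM in WT (edgeR adjusted p = 0.427), and Slc30a4 49.4 ± 5.86 CPM in dIEC and 44.4 ± 12.7 CPM in WT (edgeR adjusted p = 0.732). Of 11 further Slc39 genes 8 were tested, 4 above 0, with a median of 0.029 and 0 at an unadjusted p under 0.05. Slc39a8, an importer of zinc and manganese, had 14.2 CPM in dIEC replicate 1, 5.11 to 7.74 CPM in the other dIEC libraries and 4.49 to 6.67 CPM in WT. Slc39a10, which Mtf1 is reported to repress in the mouse, averaged 4.54 ± 1.28 CPM in dIEC and 6.37 ± 1.98 CPM in WT (log2 fold change -0.49 ± 0.23, SE; edgeR adjusted p = 0.471), and Slc39a9, a transporter of the Golgi, 47.9 ± 5.89 CPM in dIEC and 46.0 ± 10.4 CPM in WT. The brain metallothionein Mt3 had 0 to 2 reads in dIEC and 1 to 4 in WT and was not tested, and Mt4 was not analysed here.

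**Figure D3:**
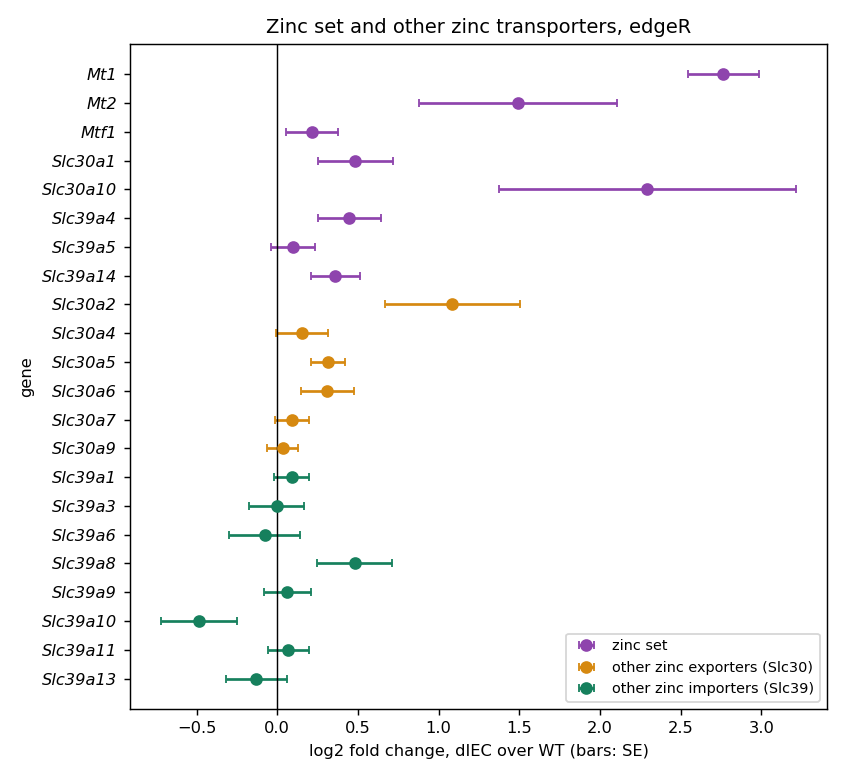
Log2 fold changes, dIEC over WT, with SE bars from edgeR for the 8 genes (purple), the other Slc30 genes (orange) and the other Slc39 genes (green). Mt1 at 2.76 stands apart with a short bar, Mt2 at 1.49 and Slc30a10 at 2.29 have wide bars, and the other Slc39 genes lie on both sides of 0.

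Other genes tied to metals or to signals that act on metallothioneins gave 0 calls in edgeR as well, and by DESeq2 1, the Stat3-linked gene Socs3. Of 5 reported Mtf1 targets, which include the repressed Slc39a10 counted above, 1 lay above 0 (median -0.27), with Selenow, a selenoprotein, at 11.2 ± 1.58 CPM in dIEC and 13.4 ± 3.25 CPM in WT and Csrp1, a LIM domain protein, at 134 ± 39.8 CPM in dIEC and 162 ± 38.1 CPM in WT. Of 12 tested copper genes 6 lay above 0 (median 0.010), led by Heph, a copper ferroxidase of enterocytes, at 109 ± 26.3 CPM in dIEC and 76.4 ± 37.2 CPM in WT, with Sod1, a copper and zinc superoxide dismutase, at 31.2 ± 7.55 CPM in dIEC and 27.3 ± 3.601 CPM in WT. Of 9 tested genes of the oxidative stress response 6 lay above 0 (median 0.10), with Nqo1 at 3.90 ± 0.921 CPM in dIEC and 5.50 ± 0.922 CPM in WT and Gsr, glutathione reductase, at 115 ± 30.0 CPM in dIEC and 84.6 ± 16.5 CPM in WT. The medians of these lists lay between -0.27 and 0.10. At an unadjusted p under 0.05 were 0 of the Mtf1 targets, 0 of the copper genes and 3 of the oxidative stress genes. Of these 3, 2 were higher and 1 was lower in dIEC. Of 14 tested glucocorticoid-induced genes and their receptors and enzymes 13 lay above 0 (median 0.61, 2 at an unadjusted p under 0.05), and of 13 tested genes linked to Stat3 12 did (median 1.23, 8 at an unadjusted p under 0.05). Over all 15911 genes tested 7767 lay above 0. In edgeR 10.7% of them had an unadjusted p under 0.05, with 4.87% higher and 5.79% lower in dIEC. Cebpd, a transcription factor, averaged 11.9 ± 4.74 CPM in dIEC and 7.53 ± 1.28 CPM in WT, Errfi1, an inhibitor of growth factor receptors, 22.3 ± 8.42 CPM in dIEC and 13.1 ± 6.19 CPM in WT, and Nr3c1, the glucocorticoid receptor, 84.9 ± 3.59 CPM in dIEC and 82.4 ± 8.86 CPM in WT. Socs3, a feedback inhibitor that Stat3 induces, averaged 28.5 ± 16.04 CPM in dIEC and 9.001 ± 4.0003 CPM in WT, Fut2, a fucosyltransferase, 20.6 ± 15.6 CPM in dIEC and 6.63 ± 4.47 CPM in WT, and Reg3b, an antimicrobial lectin, 4302 ± 2701 CPM in dIEC and 1837 ± 1490 CPM in WT.

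Whether the zinc genes followed Mt2 from library to library was asked over all 11 libraries, where the groups overlap for Mt2. The members were chosen with earlier results of these data known, which the p-values do not allow for. Slc30a10 did so most closely, with Pearson r = 0.935 (permutation p = 8.00e-05, adjusted p = 0.00152 over 19 pairs) and Spearman rho = 0.782 (permutation p = 0.00633, adjusted p = 0.0601). Without dIEC replicate 1 and WT replicate 12, the 2 libraries farthest from the Mt2 median, r was 0.829. Slc30a1 had r = 0.776 (permutation p = 0.000640, adjusted p = 0.00608) and rho = 0.791 (permutation p = 0.00516, adjusted p = 0.0601), and r = 0.638 without the same 2 libraries. Both pairs passed by Pearson's r, and by rank neither passed after adjustment. Many genes outside the set followed Mt2 as closely as Slc30a1, which was in place 273 of 9081 genes ranked by r. Slc30a10 was under the level needed for this ranking, where Wbp1l in place 5 had r = 0.937. With list scores, the mean log2 CPM of a list, Mt2 had r = 0.862 (glucocorticoid), 0.765 (Stat3), 0.643 (enterocyte), 0.427 (epithelial) and -0.692 (smooth muscle). In the same order Slc30a10 had r = 0.838, 0.640, 0.556, 0.302 and -0.502, and Slc30a1 had 0.774, 0.747, 0.775, 0.611 and -0.660. In the 6 WT libraries alone Mt2 had r = 0.353, 0.612, 0.650, 0.387 and 0.0979 with these scores. The part of the scores in the pairs was not tested. With the group means removed r was 0.930 for Slc30a10 and 0.717 for Slc30a1.

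The importers and Mtf1 gave no pair past the adjusted threshold. Slc39a4 had r = 0.0613 and rho = 0.400 with Mt2 (adjusted permutation p = 0.878 and 0.353). Slc39a5 had r = 0.400 and rho = 0.655 (adjusted permutation p = 0.315 and 0.127), Slc39a14 r = 0.576 and rho = 0.727 (adjusted permutation p = 0.132 and 0.0706) and Mtf1 r = 0.412 and rho = 0.745 (adjusted permutation p = 0.315 and 0.0706). Unadjusted, permutation p was 0.878 and 0.225 for Slc39a4, 0.232 and 0.0335 for Slc39a5, 0.0411 and 0.0149 for Slc39a14 and 0.214 and 0.0114 for Mtf1. Without dIEC replicate 1 alone r was higher for 3 of the 4, at 0.583 for Slc39a4, 0.664 for Slc39a5 and 0.723 for Mtf1, and lower for Slc39a14, at 0.497. Of these Mtf1 passed (adjusted permutation p = 0.0305 over 6 pairs, where the main test adjusts over 19). Without that library and WT replicate 12, r was 0.585 for Slc39a4, 0.817 for Slc39a5, 0.654 for Slc39a14 and 0.776 for Mtf1.

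**Figure D4:**
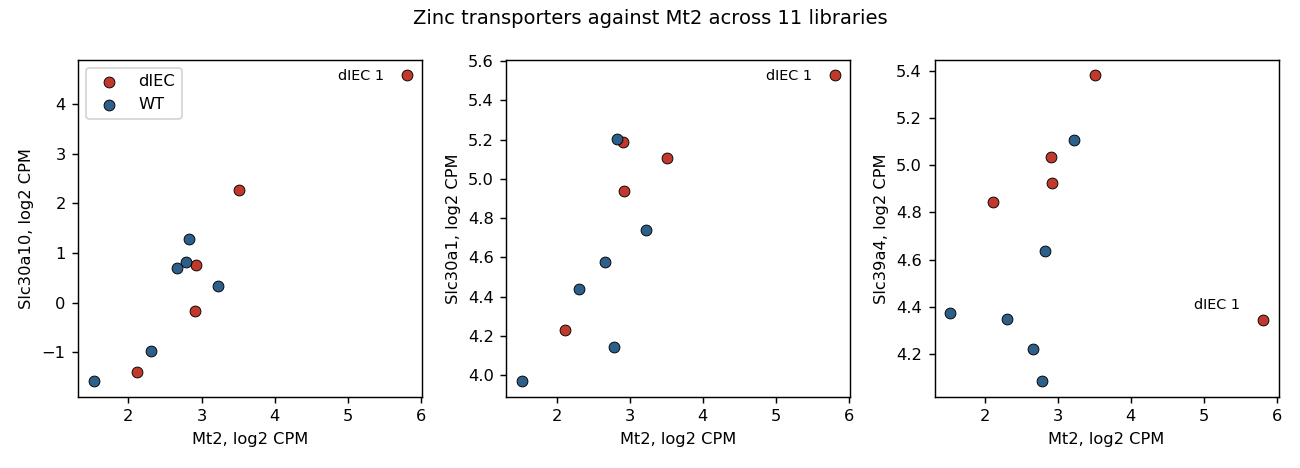
Log2 CPM of Slc30a10, Slc30a1 and Slc39a4 against log2 CPM of Mt2 in 11 libraries, dIEC in red and WT in blue. In dIEC replicate 1 the exporters Slc30a10 and Slc30a1 are at their highest with Mt2, while Slc39a4 is below every other dIEC library.

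For Mt1 the groups form separate clusters, so its relation to other genes was read in the 6 WT libraries alone, and 5 dIEC libraries are too few. There Mt1 and Mt2 had r = 0.888 and rho = 0.829, and with library size as the only scaling r was 0.831. The set was proposed from the values of these 2 genes, so this pair is a description and no test is read from it. Mt1 had r = 0.894 with Slc30a10 (rho = 0.486; adjusted exact permutation p = 0.132 and 0.450) and r = 0.416 to 0.704 with the other 5 genes. Mt2 in the same libraries had r = 0.825 with Slc30a10 (rho = 0.657; adjusted exact permutation p = 0.125 and 0.302) and r = 0.368 to 0.656 with the other 5. The smallest p that 6 libraries allow is 0.00139 for Pearson's r, and for rho it is larger. Apart from Mt1 with Mt2, given as a description only, no pair in WT passed after adjustment.

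Replicate 1 of dIEC stood out for several other gene groups that were measured beside the zinc genes. Its score for the glucocorticoid list, the mean log2 CPM of the members, was 5.01 against 3.67 to 3.95 in the other dIEC libraries and 3.27 to 4.21 in WT. Among these genes, chosen after their values were seen, Fkbp5 had 125 CPM in dIEC replicate 1, 21.2 to 45.02 CPM in the other dIEC libraries and 11.5 to 42.5 CPM in WT. Its Stat3 list score was 6.24, against 5.02 to 5.41 in the other dIEC libraries and 3.92 to 5.29 in WT. Its smooth muscle score was the lowest, 6.37 against 7.10 to 7.82 in the other dIEC libraries and 7.32 to 8.31 in WT, and its Paneth cell score, 6.01, was below the other dIEC libraries at 6.59 to 7.004 but above the lowest WT library, at 5.72. Its epithelial content score of 7.52 lay within the other dIEC libraries (7.28 to 7.67) and within WT (6.97 to 7.77). The part of any of these in the Mt2 and Slc30a10 values was not tested.

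**Figure D5:**
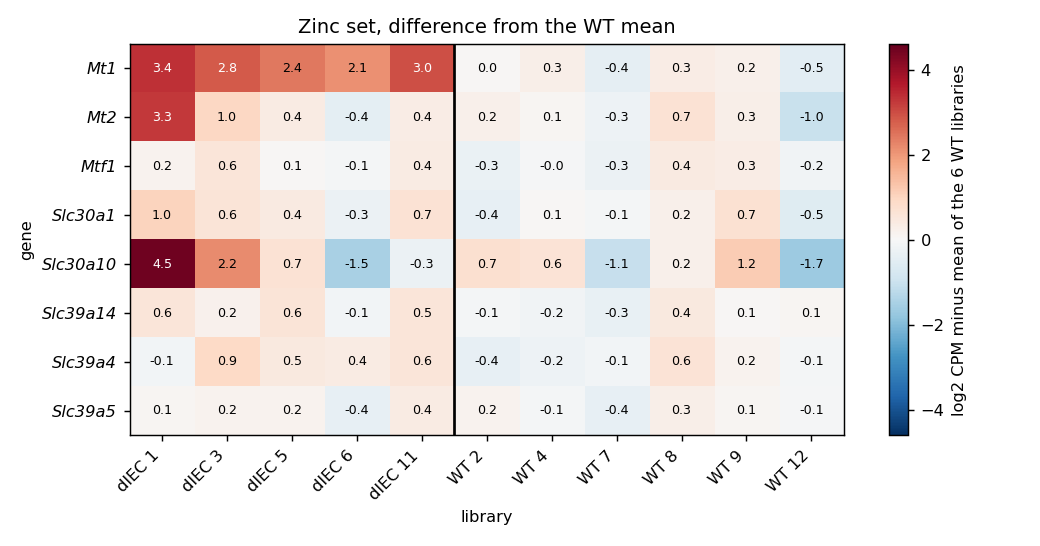
Log2 CPM minus the mean of the 6 WT libraries for each gene, dIEC libraries left of the line and WT libraries right of it. The Mt1 row is above 0 in all 5 dIEC libraries, while Mt2 and Slc30a10 are highest in dIEC replicate 1 and Slc39a4 in that library is just below the WT mean.

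Genes with a mean of at least 5 CPM were ranked by their Pearson r with Mt1 and with Mt2 over the 11 libraries, as a description, and those named only by a clone or prediction number were left out. Of 9081 genes the 5 most like Mt1 were Chchd7 (r = 0.908), Otub1 (0.892), Il18bp (0.887), Lsm12 (0.880) and Yipf5 (0.877). Mt1 separates the groups, so this likeness includes the difference between them. Among the 5 most like Mt2 were Slc36a1 (0.943), Rhou (0.942), Cpeb4 (0.940) and Wbp1l (0.937), and without dIEC replicate 1 their r ran from 0.749 for Slc36a1 to 0.916 for Rhou. Of the zinc genes ranked, Slc30a1 stood highest for both, in place 489 for Mt1 and 273 for Mt2, while Mt2 stood in place 814 for Mt1 and Slc39a4 in place 1401 for Mt1 and 4420 for Mt2. Without dIEC replicate 1 Slc39a4 was the highest of them for Mt1, in place 96 (r = 0.769), with Slc30a1 in place 948, and for Mt2 Slc30a1 was in place 190 and Slc39a4 in place 1039. Slc30a10 fell under the level needed for this ranking.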

How the data were processed

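The authors deposited 1 table of raw counts per gene for 11 libraries, with no normalization. Libraries were made with a directional NEBNext Ultra kit per the labels' protocols, and reads were aligned with TopHat2 to mm10 per the submitters' processing notes. The sources used here do not name the counting tool or its strand setting. A row naming no gene (at most 0.0147% of counts) was left out. In R 4.3.3, filterByExpr of edgeR 4.0.16 kept 15911 genes. CPM values are counts per 1000000 of the library total over kept genes multiplied by its TMM factor. The main test was edgeR's robust quasi-likelihood test with Benjamini-Hochberg adjustment over all kept genes. Each SE is |log2 fold change| / √F. Fits were tested on simulated data. Correlations used log2 CPM (prior count 0.5) with 100000 permutations for 11 libraries and all orders for 6 (scipy 1.17.1). Their p-values were adjusted over 19 pairs, or over 6 pairs with a library left out.

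The members and gene lists were chosen with earlier results of these data known. From each pathway list the text names the 2 genes with the lowest edgeR p and the one with the highest mean level, and other genes are marked as chosen after their values were seen. Marker lists are given by counts and levels. Of the genes most like Mt1 and Mt2 the 5 with the highest r were chosen for each, and one of these is not reported here. Gene positions and lengths are from GENCODE vM21 (GRCm38), and sequences from RefSeq. Alternatives were library size only, relative log expression, DESeq2 1.42.0, other filters, score covariates and each library left out. Replicate numbers come from the titles. Counting intervals (95%) cover counting error only.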

Additional observations from a re-analysis of the deposited data

Results flagged for a closer look

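In groups of 5 and 6 libraries, a library was singled out when its gap to the nearest other library took up most of the range of its group (over 0.710 of it for 5 libraries, Dixon's 95% limit). Of 18 group values checked, 2 met this, and chance gives about 1 in 20 for normally distributed values. The rule was applied to CPM, and the Mt2 values were among those the set was proposed from. Mt2 in dIEC replicate 1, at 55.9 CPM, stood above a next highest dIEC value of 11.3 CPM, a gap of 0.863 of the range. Slc30a10 in the same library, at 23.8 CPM, stood above a next value of 4.72 CPM, a gap of 0.813 of the range. Both values come from the same library. On the log2 CPM scale, tried after the data were seen, the gaps were 0.622 of the range for Mt2 and 0.389 for Slc30a10, both under the limit.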

How the results depend on the processing

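Mt1 was the one member called under all 20 alternatives of the fit, with log2 fold changes of 2.37 to 2.90. With the epithelial covariate its adjusted p lay only just under the 0.05 threshold. The set was proposed from the Mt1 and Mt2 values of this same contrast, so these calls describe the choice and do not test it. The number of genes called was 2 with library size only, 11 by DESeq2 (9 higher and 2 lower in dIEC) and 1 to 319 with each library left out, the 319 (213 higher, 106 lower) without WT replicate 8. Library size only moved the median of all genes to -0.22. The Mt2 change was 0.33 to 1.74 with a library left out, lowest without dIEC replicate 1, and that of Slc30a10 was 0.64 to 2.59, lowest without the same library, with no value without WT replicate 2, 4 or 9, where it missed the filter. Slc39a5 lay below 0 with library size only (-0.091) and with the enterocyte (-0.14) or epithelial (-0.078) covariate, as did Mtf1 with these covariates (-0.076 and -0.030). The Mt1 to Mt2 ratio in dIEC over that in WT was 4.06 and 3.599 to 4.82 with a library left out. Pairs with Mt2 past the threshold numbered 2 when adjusted over 19 pairs. With a library left out they numbered 2 to 3, but there the adjustment was over 6 pairs only, so these counts are not directly comparable. The r of Mt2 with Slc39a4 ran from -0.0438 to 0.583 with a library left out (-0.0411 without dIEC replicate 3) and was -0.0516 with library size only and -0.235 with group means removed. Pairs with Mt1 in WT past the threshold numbered 0 with library size only, against 1, which was Mt1 with Mt2, given above as a description. Leaving out a WT library was not run for the pairs in WT, as 5 would remain. The cause of these shifts was not tested. No paired analysis was possible because the labels do not link libraries of one group to the other. The replicate numbers are serial, each used once, and carry no pairing. Depth limits Slc30a10 most, with 2 reads in 2 libraries.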
